A study of Mus musculus with 10 samples.

Results

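Mouse embryonic stem cells kept in culture hold, at any time, a small and changing share of cells that switch on genes of the embryo after its first cleavage, the 2-cell-like state. The 10 genes described here are listed markers of that state outside the Zscan4 and Tcstv families: Zfp352, Tmem92, Usp17la, Usp17lc, Usp17ld, Usp17le, Gm5662, Tdpoz1, Tdpoz3 and Tdpoz4. They were chosen by name, and all 10 were found by Ensembl identifier among the 30460 genes of the files. RNA was sequenced from C57BL/6 embryonic stem cells in 10 libraries of 4 groups: 3 libraries labelled Mga-/-, 2 labelled L3mbtl2-/-, 2 labelled Pcgf6-/- and 3 from wild type cells. The labels name no other allele and no treatment, and how the alleles were made and how many clones stand behind a group are not given in the sources used here. The unit of level is FPKM, fragments per kilobase of gene and per 1000000 reads, and the reads behind each value were recovered from the steps in which the values move.

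MGA, L3MBTL2 and PCGF6 belong to PRC1.6, a form of the Polycomb complex that places ubiquitin on histone H2A: MGA and MAX contact DNA as a dimer, L3MBTL2 is an MBT domain protein, and PCGF6 is the partner of RING1A or RING1B that defines this form. The 2-cell-like programme is started in mouse by the homeodomain factor DUX, whose targets include Zscan4, Zfp352, Tdpoz and Usp17l genes and the long terminal repeats of MERVL retroviruses. ZFP352 is a zinc finger protein, TMEM92 a membrane protein, the USP17-like proteins are deubiquitinating enzymes, and the TDPOZ proteins carry a TRAF domain and a POZ domain as the ubiquitin ligase adaptor SPOP does. The genes lie on 5 chromosomes (GRCm38, GENCODE M21). The Usp17l members are spread over 1.61 Mb of chromosome 7 and the Tdpoz members lie together on chromosome 3.

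Libraries held 19370042 to 26726638 recovered reads, so that 1 read at a gene of 2 kb was worth 0.0187 to 0.0258 FPKM. The targeted genes were at 18.4% and 17.3% of the wild type mean for L3mbtl2 in L3mbtl2 knockout libraries and at 33.1% and 34% for Pcgf6 in Pcgf6 knockout libraries. Mga was at 43.5% in replicate 1, 106% in replicate 2 and 60.5% in replicate 3 of its own knockout. The library labelled Mga knockout replicate 2 thus had a wild type level of Mga RNA, which alone does not tell whether the gene was disrupted. Its summed level of 25 germ line genes was 1335 FPKM, against 67.1 to 72 FPKM in wild type. Whether its label holds was not tested, and counts and calls of the group are also given without it. Mga knockout stands here for the 3 libraries so labelled. Each of the 20 pluripotency markers was above 0 in every library.

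Upstream sequences were available for 6 of the 10 genes (RefSeq, GRCm38.p6), and a few are shown because members that follow the same or opposite patterns across the genotypes can be compared in them. The first set is a window of 186 bases upstream of the annotated start that 3 Usp17l copies share. It lies at chr7:104856830-104857015 on the plus strand for Usp17la, chr7:103416468-103416653 on the plus strand for Usp17lc and chr7:103252570-103252755 on the minus strand for Usp17ld. The RefSeq starts of Usp17la and Usp17lc lie inside the longer GENCODE genes. Capitals mark the TATA box letters and the same position in Usp17la.
Usp17la: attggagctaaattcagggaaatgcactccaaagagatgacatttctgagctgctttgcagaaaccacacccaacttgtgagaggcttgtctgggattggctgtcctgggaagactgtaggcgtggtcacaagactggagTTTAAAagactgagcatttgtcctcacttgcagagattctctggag
Usp17lc: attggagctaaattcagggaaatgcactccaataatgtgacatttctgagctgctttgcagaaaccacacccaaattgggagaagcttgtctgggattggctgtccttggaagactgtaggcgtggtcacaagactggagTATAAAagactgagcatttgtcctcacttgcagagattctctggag
Usp17ld: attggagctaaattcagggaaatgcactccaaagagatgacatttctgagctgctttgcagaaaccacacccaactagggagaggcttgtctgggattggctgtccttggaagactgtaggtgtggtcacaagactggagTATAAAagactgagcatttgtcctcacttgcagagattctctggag

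The copies differed from each other at 5 to 9 of the 186 bases. Usp17la and Usp17ld were 97.3% identical, Usp17lc and Usp17ld 95.7%, and Usp17la and Usp17lc 95.2%. The letters TATAAA, searched on both strands of the 250 bases before each annotated start, were in Usp17lc and Usp17ld and in 13% of all 27025 promoters. None of the 6 members held CACGTG, the E-box of MYC and MAX family dimers (6.05% of promoters), GCGGGAA of E2F proteins (3.84%) or TCACACC of T-box proteins (3.31%). None of these motifs lies within another, and a missing match says only that the letters are not in this window.

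The second set is the 250 bases upstream of Zfp352 (chr4:90218570-90218819, plus strand), Tdpoz1 (chr3:93676284-93676533, minus strand) and Tdpoz4 (chr3:93796148-93796397, plus strand). Capitals mark the longest run that Zfp352 and Tdpoz1 share, 17 bases, and the shorter run ATATAAG.
Zfp352: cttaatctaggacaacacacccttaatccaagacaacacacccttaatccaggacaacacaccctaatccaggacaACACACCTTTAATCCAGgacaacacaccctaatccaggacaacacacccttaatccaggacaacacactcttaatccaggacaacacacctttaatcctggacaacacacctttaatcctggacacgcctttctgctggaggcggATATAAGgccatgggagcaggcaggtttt
Tdpoz1: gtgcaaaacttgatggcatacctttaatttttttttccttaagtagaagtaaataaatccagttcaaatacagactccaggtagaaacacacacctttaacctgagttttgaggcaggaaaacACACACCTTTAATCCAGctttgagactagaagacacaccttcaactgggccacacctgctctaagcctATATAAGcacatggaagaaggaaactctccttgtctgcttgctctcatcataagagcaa
Tdpoz4: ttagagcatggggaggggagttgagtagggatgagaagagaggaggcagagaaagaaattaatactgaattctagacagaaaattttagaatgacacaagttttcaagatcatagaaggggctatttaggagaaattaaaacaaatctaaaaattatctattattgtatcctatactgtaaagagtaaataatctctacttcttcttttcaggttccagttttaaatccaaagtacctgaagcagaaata

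The run of 17 bases was in 5 of all promoters (0.0185%). ATATAAG, picked after both sequences were read, was in 2.4% of promoters. It began 29 bases before the RefSeq start of Zfp352 and 59 bases before that of Tdpoz1. The RefSeq start of Tdpoz1, unlike that of Zfp352, lies inside the longer GENCODE gene, so part of the Tdpoz1 window is within that gene. The longest run shared by Tdpoz1 and Tdpoz4 was 9 bases. Zfp352 and Tdpoz1, which hold the long run in common, followed different patterns across the knockouts, as shown next.

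Together the 10 genes gave 136, 189 and 901 reads in the Mga knockout libraries, 80 and 54 in L3mbtl2 knockout, 508 and 424 in Pcgf6 knockout, and 6, 3 and 8 in wild type. Per 1000000 reads of the library these were 5.48, 7.81 and 37.5 in Mga knockout, 3.37 and 2.34 in L3mbtl2 knockout, 21.9 in each Pcgf6 knockout library, and 0.251, 0.112 and 0.301 in wild type. Every knockout library lay above every wild type library, and the Pcgf6 knockout libraries lay between the highest and the other 2 Mga knockout libraries. In bulk RNA, more cells with these transcripts and more transcripts per cell cannot be told apart.

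**Figure D1:**
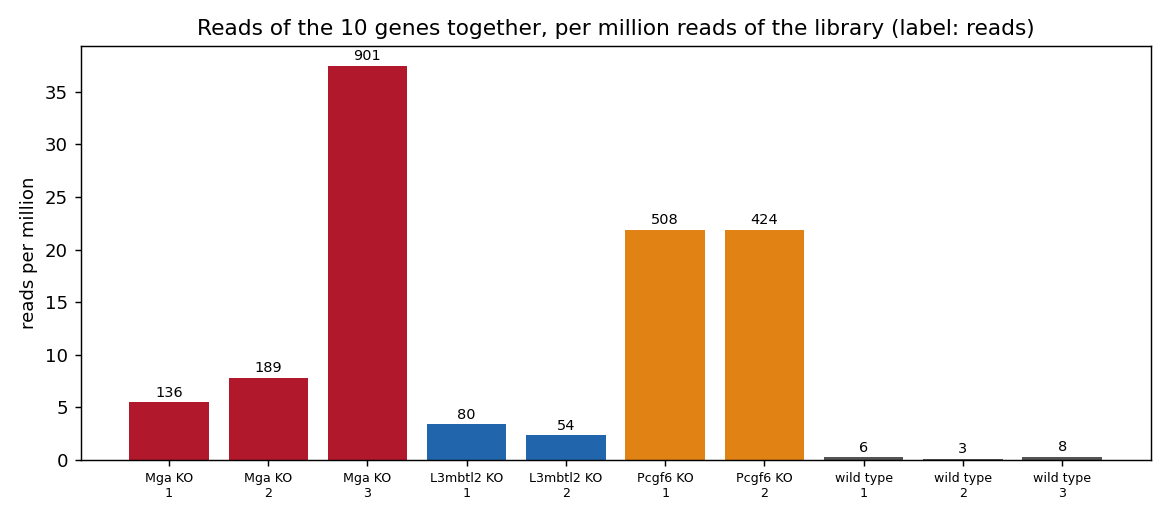
Bars give the reads of the 10 genes together, per 1000000 reads of the library, for each of the 10 libraries, and the label above a bar is the number of reads. The library labelled Mga knockout replicate 3 stands highest at 37.5, both Pcgf6 knockout libraries are at 21.9, and the wild type libraries are at or below 0.301.

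Zfp352 (ENSMUSG00000070902, chromosome 4, 90218820 to 90225702) was at 0.195, 0.109 and 0.951 FPKM in Mga knockout and at 0.397 and 0.431 FPKM in Pcgf6 knockout. It had no read in the L3mbtl2 knockout and wild type libraries. Over wild type, with a floor of 3 reads over the group, it was at least 24.3-fold higher in Mga knockout (69 reads) and at least 24.2-fold higher in Pcgf6 knockout (40 reads). Each Mga and Pcgf6 knockout library held reads of Zfp352, from 6 to 52. In a fit over every gene above 0, the log2 fold change of Zfp352 on the log2(FPKM + 0.1) scale was 2.01 ± 0.52 in Mga knockout (SE, limma, Benjamini-Hochberg adjusted p = 0.0285) and 2.36 ± 0.58 in Pcgf6 knockout (adjusted p = 0.0625). The value in Mga knockout became 2.48 without its replicate 2 (adjusted p = 0.00663) and 1.31 without its replicate 3 (adjusted p = 0.00589), while leaving out any 1 wild type, L3mbtl2 or Pcgf6 knockout library lost the call (adjusted p = 0.0573 to 0.0846).

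Tmem92 (ENSMUSG00000075610, chromosome 11, 94777217 to 94782703), the membrane protein gene, was at 0.516, 0.642 and 1.88 FPKM in Mga knockout, at 0.0385 and 0.0397 FPKM in L3mbtl2 knockout and at 1.36 and 1.18 FPKM in Pcgf6 knockout. The L3mbtl2 knockout values are 2 reads each, and wild type libraries had none. Mga and Pcgf6 knockout libraries overlapped in level and stood clear of the other groups. It was at least 56.8-fold higher in Mga knockout and at least 71.9-fold higher in Pcgf6 knockout than in wild type. The log2 fold changes over wild type were 3.28 ± 0.44 in Mga knockout (adjusted p = 0.00084), 0.48 ± 0.49 in L3mbtl2 knockout (adjusted p = 0.467; 2.30 with a pseudocount of 0.01, adjusted p = 0.0288) and 3.77 ± 0.49 in Pcgf6 knockout (adjusted p = 0.00351). Tested genes of chromosome 11 had a median of -0.23 in Mga knockout and -0.31 in Pcgf6 knockout. On chromosomes 3, 4, 7 and 12, which hold the other members, medians were 0.19, 0.10, 0.04 and 0.27 in Mga knockout. In Pcgf6 knockout they were 0.08, 0.07, 0.10 and 0.06. The part of chromosome-wide shifts in the values of the members was not tested.

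Tmem92 shared no run of 100 bases with another annotated transcript. Of the 10 tested neighbours within 200 kb, 3 rose and 4 fell in Mga knockout (22.8% and 16.7% of all tested genes did), and 4 rose in Pcgf6 knockout (5.45%). Among them are annotated pseudogenes on the same strand. Gm11543 gave 0, 10 and 27 reads in Mga knockout, 0 in both L3mbtl2 knockout libraries, 21 and 17 in Pcgf6 knockout and 0 in wild type. AA623943 gave 3, 1 and 53 reads in Mga knockout, 0 and 1 in L3mbtl2 knockout, 10 and 20 in Pcgf6 knockout and 0 in wild type. Gm11545 gave 13, 10 and 20 reads in Mga knockout, 5 and 7 in L3mbtl2 knockout, 33 and 19 in Pcgf6 knockout, and 11, 2 and 2 in wild type. Gm11546 gave 2, 1 and 14 reads in Mga knockout and 16 and 4 in Pcgf6 knockout. It had none in L3mbtl2 knockout and wild type. By limma, Gm11545 (adjusted p = 0.0392) and Gm11546 (adjusted p = 0.0389) passed in Mga knockout. Gm11543 (adjusted p = 0.0568) and AA623943 (adjusted p = 0.0512) did not. In Pcgf6 knockout Gm11543 (adjusted p = 0.0398), Gm11545 (adjusted p = 0.0296) and Gm11546 (adjusted p = 0.0333) passed. AA623943 did not (adjusted p = 0.0586). In all of these pseudogenes, as in Tmem92, replicate 3 was the highest Mga knockout library. These neighbours were chosen after their values were seen.

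The 4 Usp17l members, enzymes that remove ubiquitin and whose founding mouse members were described in cytokine-treated blood cells, had most of their reads in Mga and Pcgf6 knockout. Their summed reads were 76, 111 and 620 in Mga knockout, 23 and 9 in L3mbtl2 knockout, 282 and 238 in Pcgf6 knockout, and 5, 1 and 8 in wild type. Usp17le (ENSMUSG00000043073, chromosome 7, 104768049 to 104777470) was the most abundant, at 0.62, 1.3 and 6.63 FPKM in Mga knockout, 0.285 and 0.16 FPKM in L3mbtl2 knockout, 3.23 and 3.05 FPKM in Pcgf6 knockout, and 0.0514, 0.023 and 0.0462 FPKM in wild type. L3mbtl2 knockout stood between wild type and the other knockouts without overlap. The rate of Usp17le reads was 70.9-fold higher in Mga knockout (exact 95% counting interval 30.1 to 220), 5.61-fold in L3mbtl2 knockout (1.99 to 19.5) and 79.1-fold in Pcgf6 knockout (33.4 to 246) than in wild type. On the log2 scale the fit gave 3.76 ± 0.69 in Mga knockout (adjusted p = 0.00353), 1.18 ± 0.77 in L3mbtl2 knockout (adjusted p = 0.25) and 4.53 ± 0.77 in Pcgf6 knockout (adjusted p = 0.00978). The L3mbtl2 knockout difference passed without Mga knockout replicate 3 (adjusted p = 0.029) and with a spread per group (adjusted p = 0.00298), and its adjusted p otherwise reached up to 0.756.

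Usp17la (ENSMUSG00000054568, chromosome 7, 104857009 to 104862667) was at 0.486, 0.606 and 3.45 FPKM in Mga knockout, 0.0951 and 0.0327 FPKM in L3mbtl2 knockout, 1.33 and 1.21 FPKM in Pcgf6 knockout, and 0.0472, 0 and 0.0566 FPKM in wild type. Here L3mbtl2 knockout and wild type overlapped. The log2 fold change over wild type was 3.10 ± 0.63 in Mga knockout (adjusted p = 0.00577), 0.28 ± 0.71 in L3mbtl2 knockout (adjusted p = 0.774) and 3.37 ± 0.71 in Pcgf6 knockout (adjusted p = 0.0218). Usp17lb, the copy beside it that is outside the list of members, gave 27, 20 and 158 reads in Mga knockout, 3 in each L3mbtl2 knockout library, 46 and 52 in Pcgf6 knockout, and 0, 0 and 1 in wild type, the same order as its neighbour.

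Usp17lc (ENSMUSG00000058976, chromosome 7, 103415072 to 103419880) was at 0.214, 0.118 and 1.58 FPKM in Mga knockout, 0.0858 and 0.0177 FPKM in L3mbtl2 knockout, 1.12 and 1.2 FPKM in Pcgf6 knockout, and 0 in wild type. Usp17ld (ENSMUSG00000057321, chromosome 7, 103249737 to 103252505) was at 0.122, 0.291 and 1.01 FPKM in Mga knockout, 0.0212 and 0 FPKM in L3mbtl2 knockout, 0.303 and 0.598 FPKM in Pcgf6 knockout, and 0, 0 and 0.0378 FPKM in wild type. In both copies 1 library, replicate 3, held most of the reads of Mga knockout. Usp17lc rose by 2.28 ± 0.69 in Mga knockout (adjusted p = 0.0294) and by 3.66 ± 0.77 in Pcgf6 knockout (adjusted p = 0.0221). For Usp17ld the log2 fold change was 2.04 ± 0.59 in Mga knockout (adjusted p = 0.0248) and 2.25 ± 0.66 in Pcgf6 knockout (adjusted p = 0.0651). In Mga knockout both calls were lost when any 1 wild type library was left out (adjusted p = 0.0513 to 0.0759). They were also lost with a spread per group (adjusted p = 0.0692 for Usp17lc and 0.13 for Usp17ld) and with a pseudocount of 1 (adjusted p = 0.112 and 0.076). Transcripts of these copies shared 745 windows of 100 bases, 32.3% of the windows of Usp17lc and 39.5% of those of Usp17ld, so reads can be split between them, and the values of the pair are less certain than those of Usp17la (3.83%) and Usp17le (8.22%).

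Because Usp17l enzymes are also known from blood cells, markers of macrophages were read beside them. The summed level of 16 macrophage genes was 9.61 to 32.5 FPKM in Mga knockout, 481 to 497 FPKM in L3mbtl2 knockout, 225 to 231 FPKM in Pcgf6 knockout and 169 to 175 FPKM in wild type. Of the 14 tested, 13 fell in Mga knockout (16.7% of all tested genes did), while 8 rose in L3mbtl2 knockout (23.4%) and 3 in Pcgf6 knockout (5.45%). In the Mga knockout libraries 2, 7 and 4 of the 16 were at 0, against at most 1 in any other library. Mga knockout was below wild type in these markers and above it in Usp17l reads, and Pcgf6 knockout was above wild type in both. The part of these markers in the Usp17l values was not tested. For 17 fibroblast markers, which feeder cells would bring, the summed level was 1036, 456 and 628 FPKM in Mga knockout, 549 and 534 FPKM in L3mbtl2 knockout, 429 and 425 FPKM in Pcgf6 knockout, and 437 to 438 FPKM in wild type. It was highest in Mga knockout replicate 1, whereas the 10 genes were highest in replicate 3. Of the 17, 3 rose in Mga knockout (22.8% of all tested genes did) and 7 without its replicate 2 (32.7%). In L3mbtl2 knockout 1 rose (23.4%), and in Pcgf6 knockout 1 (5.45%). The part of these fibroblast markers in the values of the 10 genes was not tested.

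Gm5662 (ENSMUSG00000079029, chromosome 12, 88270640 to 88274500), a predicted protein-coding gene, was at 0.307, 0.741 and 2.24 FPKM in Mga knockout, 0.709 and 0.472 FPKM in L3mbtl2 knockout, 2.55 and 2.92 FPKM in Pcgf6 knockout, and 0.0227, 0.0407 and 0 FPKM in wild type. Each knockout library lay above wild type, and L3mbtl2 knockout fell within the range of Mga knockout. The read rate was 51.5-fold that of wild type in Mga knockout (17.3 to 252), 28.1-fold in L3mbtl2 knockout (9.08 to 141) and 129-fold in Pcgf6 knockout (43.5 to 629). The log2 fold change was 2.95 ± 0.55 in Mga knockout (adjusted p = 0.00396), 2.50 ± 0.62 in L3mbtl2 knockout (adjusted p = 0.0129) and 4.56 ± 0.62 in Pcgf6 knockout (adjusted p = 0.00433). Gm5662 was the 1 member among those tested after the FPKM filter that rose in L3mbtl2 knockout (23.4% of the tested genes did), and with 1 library of that group left out the call was lost (adjusted p = 0.0534 and 0.0951).

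Gm5662 belongs to a group of near-identical copies on chromosome 12. Of its 1741 windows of 100 bases, 58.4% were also in other genes, most of them in Gm2016. Gm2016 gave 3, 10 and 81 reads in Mga knockout, 8 and 6 in L3mbtl2 knockout, 53 and 24 in Pcgf6 knockout, and 0, 0 and 1 in wild type. Gm8332 gave 15, 16 and 50 reads in Mga knockout, 16 and 15 in Pcgf6 knockout, and none in the L3mbtl2 knockout and wild type libraries. The rise in L3mbtl2 knockout was therefore not seen in every copy: both L3mbtl2 knockout libraries had reads of Gm5662 and Gm2016, and neither had a read of Gm8332. How reads were shared out among the copies was not stated in the labels.

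**Figure D2:**
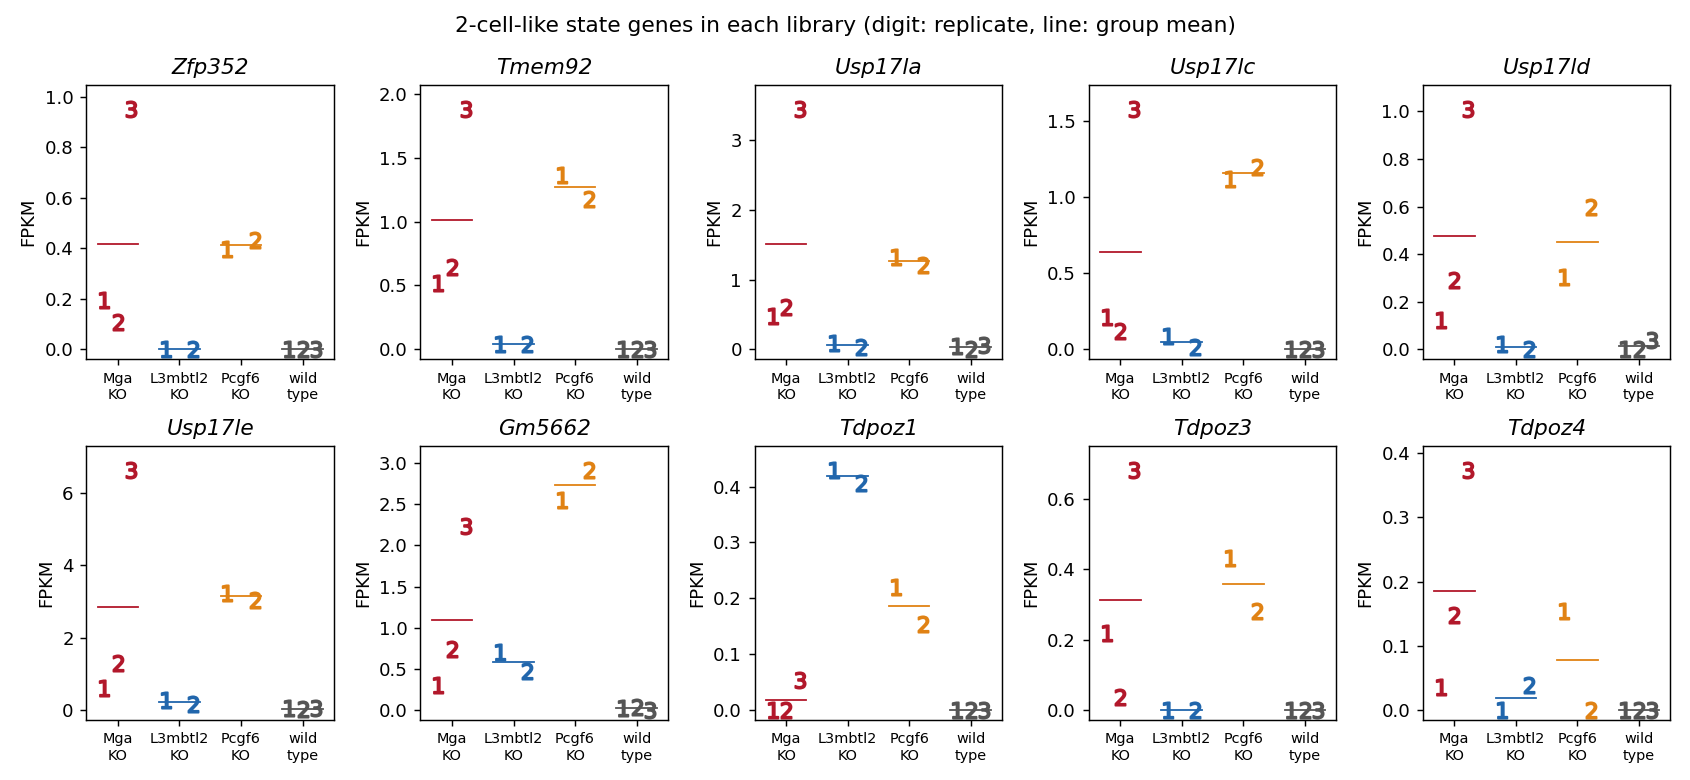
Each panel shows 1 gene, with FPKM on a linear axis of its own and the groups side by side, and each digit is a library at the height of its level with its replicate number, and a line marks the group mean. Replicate 3 is the highest Mga knockout library in all 10 panels, and Tdpoz1 is the panel in which L3mbtl2 knockout is highest.

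The 3 Tdpoz members, genes of POZ domain proteins on chromosome 3, did not share a pattern. Tdpoz3 (ENSMUSG00000058005, 93826020 to 93827117) was at 0.22, 0.0376 and 0.682 FPKM in Mga knockout and at 0.431 and 0.282 FPKM in Pcgf6 knockout, with no read in L3mbtl2 knockout or wild type libraries. Tdpoz4 (ENSMUSG00000060256, 93796398 to 93797510) had 1, 4 and 10 reads in Mga knockout, 0 and 1 in L3mbtl2 knockout, 4 and 0 in Pcgf6 knockout, and 0 in wild type. Both were low, and neither passed in the fit over every gene above 0. In Mga knockout the log2 fold change was 1.70 ± 0.54 for Tdpoz3 (adjusted p = 0.057) and 1.33 ± 0.48 for Tdpoz4 (adjusted p = 0.0868). Without Mga knockout replicate 2, Tdpoz3 passed at 2.32 (adjusted p = 0.00304, range 0.00304 to 0.14).

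Tdpoz1 (ENSMUSG00000094084, 93669333 to 93676310) was instead highest in L3mbtl2 knockout. It had 0, 0 and 3 reads in Mga knockout, 24 and 22 in L3mbtl2 knockout, 12 and 7 in Pcgf6 knockout, and 0 in wild type. In FPKM these were 0, 0 and 0.0531 in Mga knockout, 0.43 and 0.406 in L3mbtl2 knockout, 0.22 and 0.154 in Pcgf6 knockout, and 0 in wild type, so that L3mbtl2 knockout, Pcgf6 knockout and Mga knockout followed each other without overlap. Tdpoz1 was at least 25.3-fold higher in L3mbtl2 knockout and at least 11.5-fold higher in Pcgf6 knockout than in wild type. In the fit over every gene above 0 it rose by 2.37 ± 0.25 in L3mbtl2 knockout (adjusted p = 0.000559) and by 1.51 ± 0.25 in Pcgf6 knockout (adjusted p = 0.0153). It was lower in Mga knockout than in L3mbtl2 knockout by the test of that difference, at -2.17 ± 0.25 (adjusted p = 0.00116), and than in Pcgf6 knockout, at -1.30 ± 0.25 (adjusted p = 0.0148). The first difference held when each library in turn was left out, and the Pcgf6 knockout calls did not hold without its replicate 1 (adjusted p = 0.0821 against wild type and 0.0841 for Mga knockout against Pcgf6 knockout). Against wild type the Pcgf6 knockout call was also lost without any 1 wild type library (adjusted p = 0.0669 to 0.0722).

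Within the locus the other genes with reads were then listed. Tdpoz2 (93651542 to 93652686) had 0, 2 and 2 reads in Mga knockout, 11 and 17 in L3mbtl2 knockout, 3 and 16 in Pcgf6 knockout, and 0 in wild type. It rose by 2.62 ± 0.61 in L3mbtl2 knockout (adjusted p = 0.00977) and had a log2 fold change of 2.06 ± 0.61 in Pcgf6 knockout (adjusted p = 0.0662). Gm37596 (93692050 to 93693070), a predicted protein-coding gene on the same strand chosen after its values were seen, had 10, 5 and 2 reads in Mga knockout, 240 and 222 in L3mbtl2 knockout, 30 and 15 in Pcgf6 knockout, and 1, 7 and 3 in wild type. Its log2 fold change was 5.48 ± 0.50 in L3mbtl2 knockout (adjusted p = 0.00016), 2.30 ± 0.50 in Pcgf6 knockout (adjusted p = 0.0246) and 0.45 ± 0.45 in Mga knockout (adjusted p = 0.449).

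Tdpoz1, Tdpoz2 and Gm37596 lie on the minus strand within 41.5 kb, and each had its highest group mean in L3mbtl2 knockout, although 1 Pcgf6 knockout library of Tdpoz2 was as high as the L3mbtl2 knockout libraries. Tdpoz4 and Tdpoz3 lie on the plus strand within 30.7 kb, 103 kb further along, and had 0 or 1 read in L3mbtl2 knockout. Of the 9 genes of the interval with a value above 0, the plus-strand gene Gm5773 also had no read in L3mbtl2 knockout, and 6 in Mga knockout replicate 3. The minus-strand pseudogene Gm5852 had 5 and 4 reads in L3mbtl2 knockout, 1 and 0 in Pcgf6 knockout and none in the other libraries. The order did not follow strand throughout: 2 short plus-strand pseudogenes, both named Gm18433, had 1 and 4 reads in L3mbtl2 knockout replicate 1 and none in the other libraries. Windows shared with other genes made up 23.8% of Tdpoz1, 46.7% of Tdpoz3 and 11.6% of Tdpoz4. The library kit does not mark strand, but among the 10 genes Usp17lc alone overlaps an annotated gene.

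**Figure D3:**
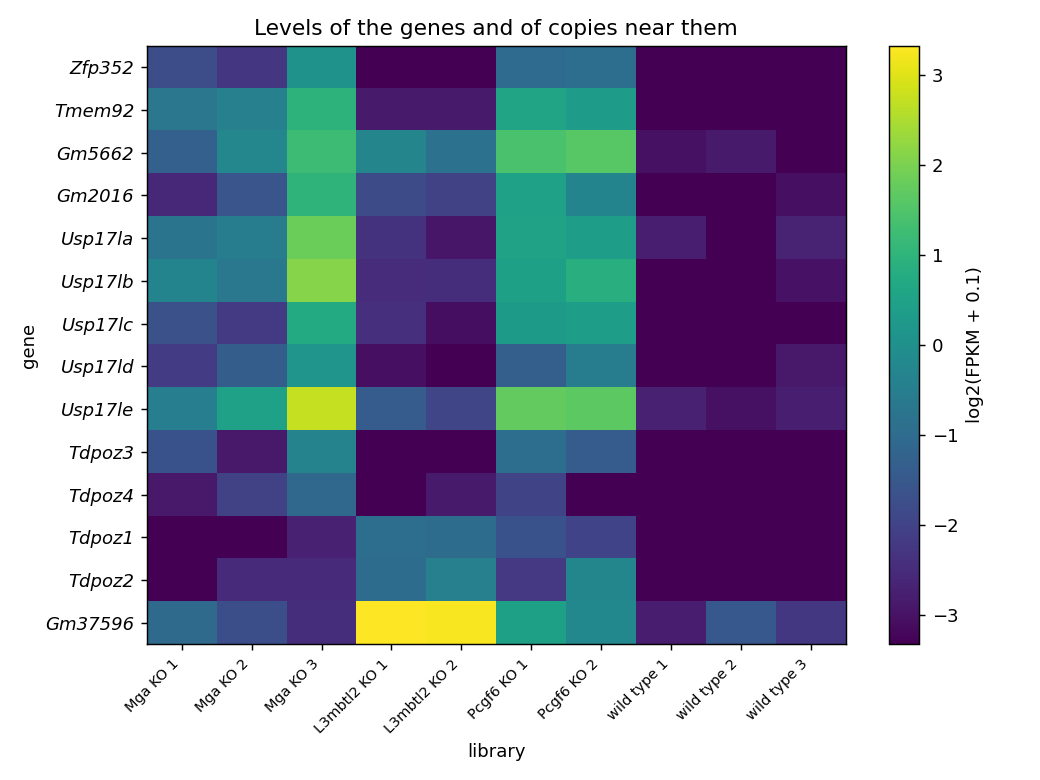
Colour gives log2(FPKM + 0.1) of the 10 genes and of 4 copies or neighbours (Gm2016, Usp17lb, Tdpoz2 and Gm37596) in each of the 10 libraries, genes down the side and libraries along the bottom. The upper rows are bright in Mga knockout replicate 3 and in both Pcgf6 knockout libraries, and the last 3 rows, Tdpoz1, Tdpoz2 and Gm37596, are brighter in L3mbtl2 knockout than in Mga knockout.

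Counts over the genes were read against those over the whole table. The 3 comparisons with wild type share the wild type libraries. In the fit over all 28713 genes above 0, 7 of the 10 genes rose in Mga knockout (12% of all genes did), 2 in L3mbtl2 knockout (13.5%) and 6 in Pcgf6 knockout (2.49%). Gm5662 and Tdpoz1 were the 2 in L3mbtl2 knockout. After the filter of at least 0.5 FPKM in at least 2 libraries, which 6 of the 10 genes passed through their level in Mga or Pcgf6 knockout, those that rose were 6 in Mga knockout (22.8% of the 15731 tested genes), 1 in L3mbtl2 knockout (23.4%) and 5 in Pcgf6 knockout (5.45%). Since the filter keeps a gene that is high in some group, the second counts describe those 6 genes only. In L3mbtl2 knockout the share of the genes that rose was near that of all genes. Without Mga knockout replicate 2, 8 of the 10 rose in Mga knockout in the fit over all genes above 0 (20.5% of all genes did), Tdpoz3 being the 1 gained.

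By overlap of libraries, 9 of the 10 genes were higher in every Mga knockout library than in every wild type library (20% of all genes were), 5 in L3mbtl2 knockout (35.2%) and 9 in Pcgf6 knockout (25.5%). Without replicate 2 of Mga knockout its count was also 9 (31.2%). Tdpoz1 was the exception in Mga knockout and Tdpoz4 in Pcgf6 knockout. The median log2 fold change of the 10 genes was 2.16 in Mga knockout, 0.38 in L3mbtl2 knockout and 2.87 in Pcgf6 knockout, against 0.11, 0.10 and 0.00 over all genes above 0. The calls in Pcgf6 knockout rested on both of its libraries: with 1 left out, and the other assumed to vary like the rest, none of the 5 remained (adjusted p = 0.0522 to 0.161 by limma), and without any 1 wild type library 3 genes passed.

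**Figure D4:**
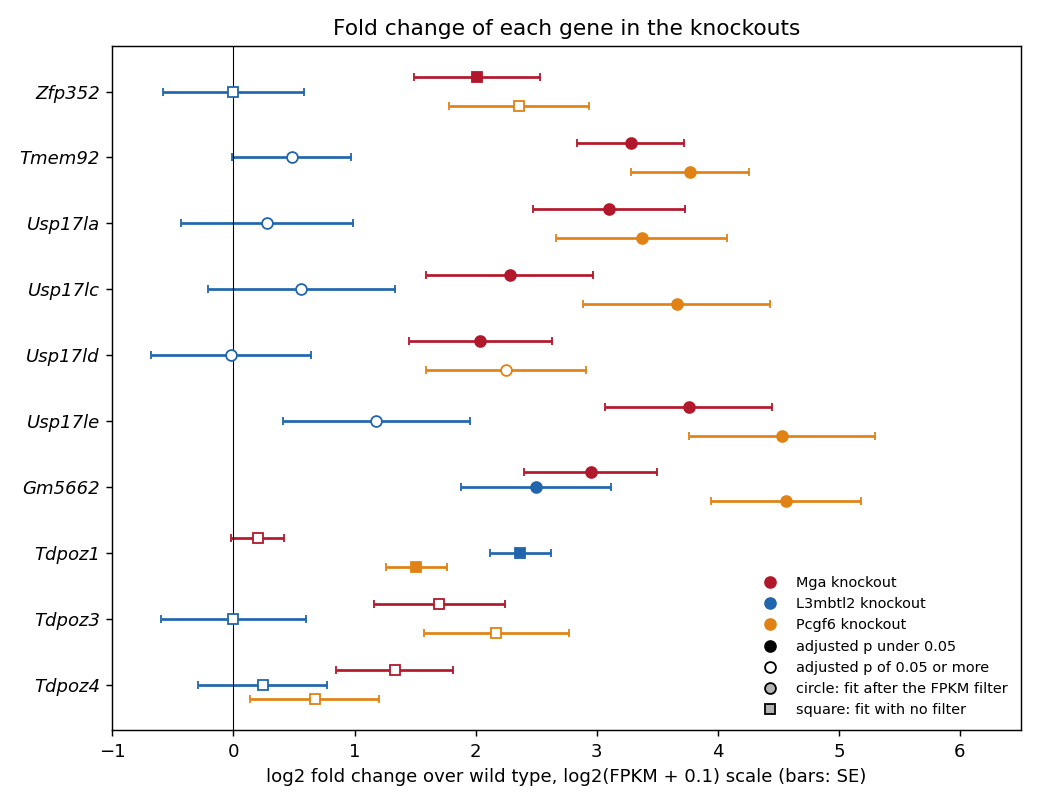
Points give the log2 fold change of each gene over wild type on the log2(FPKM + 0.1) scale with its SE, for Mga, L3mbtl2 and Pcgf6 knockout, filled where the adjusted p was under 0.05; circles come from the fit after the FPKM filter and squares from the fit with no filter. L3mbtl2 knockout lies near 0 for most genes, at 2.50 for Gm5662 and at 2.37 for Tdpoz1.

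The knockouts were also compared with each other. Across all genes above 0, 5 of the 10 genes were lower in L3mbtl2 than in Pcgf6 knockout (6.74% of all genes were), Zfp352 among them at -2.36 ± 0.64 (adjusted p = 0.0407). That call on Zfp352 was lost when any 1 wild type, L3mbtl2 or Pcgf6 knockout library was left out (adjusted p = 0.0697 to 0.173). The 6 genes past the FPKM filter were all called lower (13.9% of tested genes were), but they had entered that fit through their level in Mga or Pcgf6 knockout, so their count is a description only. The log2 fold changes there were -3.30 ± 0.54 for Tmem92 (adjusted p = 0.00327), -3.35 ± 0.84 for Usp17le (adjusted p = 0.0192) and -2.06 ± 0.68 for Gm5662 (adjusted p = 0.0495). By overlap, 8 of the 10 genes were lower in both L3mbtl2 knockout libraries than in both Pcgf6 knockout libraries (25%), and Tdpoz1 was higher (33.3%). Leaving out any 1 library of the 2 groups left 1 call after the filter, Tmem92, whose adjusted p was at most 0.0321 over the alternatives. For Tdpoz1 the difference had the other sign, at 0.86 ± 0.27 (adjusted p = 0.0665).

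Between Mga and L3mbtl2 knockout, 2 of the 10 genes were higher in Mga knockout over all genes above 0, Tmem92 and Usp17la (5.26% of all genes were), and Tdpoz1 was lower (6.69%). Without Mga knockout replicate 2, Zfp352 (2.48, adjusted p = 0.0156) and Tdpoz3 (2.32, adjusted p = 0.00776) were also higher, which made 4 of the 10 (10.5%). Among the 6 genes kept by the filter, which favours genes high in Mga or Pcgf6 knockout, 3 were called higher (10.9% of tested genes were): Tmem92 by 2.80 ± 0.49 (adjusted p = 0.00482), Usp17la by 2.82 ± 0.71 (adjusted p = 0.0224) and Usp17le by 2.58 ± 0.77 (adjusted p = 0.0426, and 0.0725 with no filter). Without Mga knockout replicate 2 Usp17lc was called too (2.29, adjusted p = 0.0394), and with L3mbtl2 knockout replicate 1 or 2 left out, 1 call was left. By overlap, 7 of the 10 genes were higher in every Mga knockout library than in both L3mbtl2 knockout libraries (14.6%). Tdpoz1 was lower in all 3 (18.9%). These counts, 7 and 1, were the same without Mga knockout replicate 2 (24.2% and 23.5%).

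Between Mga and Pcgf6 knockout, limma called 0 of the 6 genes (12% of tested genes were higher in Mga knockout and 10.6% lower). Limma-voom on the recovered reads also called 0, and 1 gene, Gm5662, had an unadjusted p under 0.05. The difference was -1.61 ± 0.62 for Gm5662 (adjusted p = 0.0935), -1.38 ± 0.77 for Usp17lc (adjusted p = 0.225) and -0.26 ± 0.71 for Usp17la (adjusted p = 0.814). With Mga knockout replicate 3 left out, the differences of 3 genes passed: Usp17lc at -2.27 (adjusted p = 0.00917), Gm5662 at -2.27 (adjusted p = 0.00978) and Usp17le at -1.69 (adjusted p = 0.0212). In the fit over all genes above 0, Tdpoz1 was the 1 call (5.07% of genes were lower). Both counts, 0 and 1, were the same without Mga knockout replicate 2.

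Replicate 3 was the highest of the 3 Mga knockout libraries for all 10 genes (36.8% of all genes above 0 were highest there). Its FPKM was 3.25 times the mean of the other 2 libraries for Tmem92, 9.52 times for Usp17lc, and in the median 5.29 times over the 9 genes with reads in those libraries. Its Mga level, 11.2 FPKM, lay between the 8.03 FPKM of replicate 1 and the 19.6 FPKM of replicate 2. The library labelled Mga knockout replicate 2, with a wild type level of Mga, still held 189 reads of the 10 genes, against at most 8 in wild type. Without it the 6 calls of Mga knockout against wild type remained, with log2 fold changes of 2.15 to 3.98. Without replicate 3, 5 genes could be tested and passed, at 1.39 for Usp17lc, 2.29 for Gm5662, 2.28 for Usp17la, 2.76 for Tmem92 and 2.84 for Usp17le.

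Levels across the 4 groups followed 4 orders. For Zfp352, Tmem92, Tdpoz3 and the Usp17l copies, Mga and Pcgf6 knockout were highest and overlapped, and L3mbtl2 knockout and wild type came last, with differences between those 2 that did not pass apart from the alternatives named above for Tmem92 and Usp17le. Tdpoz4 had its most reads in Mga knockout and overlapped between Pcgf6 knockout, L3mbtl2 knockout and wild type. For Gm5662, Pcgf6 knockout was highest, Mga and L3mbtl2 knockout overlapped, and wild type was lowest. For Tdpoz1, L3mbtl2 knockout was highest, followed by Pcgf6 knockout, and Mga knockout overlapped wild type at 0. Measured as the root-mean-square difference over the 10 libraries between log2(FPKM + 0.1) profiles each centred on its own mean, the most alike members were Zfp352 and Tdpoz3, at 0.25, and the least alike Usp17le and Tdpoz1, at 2.05.

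Genes outside the list were ranked by the same measure, leaving out predicted models and clone names such as Gm and Rik symbols. Of the tested genes that remained, the 5 most like Zfp352 included Dmgdh (0.27) and Bhmt2 (0.38), enzymes of choline and methionine metabolism. The rest were Prss42 (0.31), a serine protease, Tcstv1 (0.43) and D13Ertd608e (0.47). Dmgdh averaged 0.802 FPKM in Mga knockout, 0.0629 in L3mbtl2 knockout, 0.904 in Pcgf6 knockout and 0.0926 in wild type. The 5 most like Tmem92 were Zscan4b (0.36), Usp17lb (0.37), Pramef25 (0.44), D13Ertd608e (0.45) and Zscan4d (0.46). Zscan4b averaged 1.21 FPKM in Mga knockout, 0.012 in L3mbtl2 knockout, 1.99 in Pcgf6 knockout and 0 in wild type. These likenesses describe 10 libraries that share their groups.

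The wider 2-cell list held 40 other genes of the files, of which 24 were tested. Of these 14 rose and 1 fell in Mga knockout (15 and 1 without its replicate 2), 3 rose in L3mbtl2 knockout, and 16 rose and 1 fell in Pcgf6 knockout. Over all tested genes, Mga knockout had 22.8% higher and 16.7% lower (32.7% and 22.7% without its replicate 2). L3mbtl2 knockout had 23.4% higher and 16.7% lower, and Pcgf6 knockout 5.45% higher and 4.62% lower. The share in L3mbtl2 knockout, 3 of 24, was below that of all genes. Genes such as Zscan4b passed the FPKM filter only through their level in Mga or Pcgf6 knockout. The counts, and the medians that follow, therefore describe the 24 tested genes only. The median log2 fold changes were 2.03 in Mga knockout, 0.47 in L3mbtl2 knockout and 3.31 in Pcgf6 knockout, against 0.10, 0.13 and 0.04 over all tested genes. Zscan4f, a zinc finger protein of telomere upkeep in these cells, averaged 4.59 ± 4.79 FPKM in Mga knockout (SD, n = 3) and 5.98 ± 0.11 FPKM in Pcgf6 knockout (SD, n = 2), with none in wild type. Obox6, a homeobox gene of the oocyte and early embryo, had the order of Tdpoz1 among the knockouts: it had 5, 9 and 12 reads in Mga knockout, 507 and 490 in L3mbtl2 knockout, 137 and 75 in Pcgf6 knockout, and 13, 14 and 13 in wild type. It rose by 5.04 ± 0.29 in L3mbtl2 knockout (adjusted p = 1.47e-05) and by 2.91 ± 0.29 in Pcgf6 knockout (adjusted p = 0.0011).

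DUX itself was read through Duxf3, its gene in mouse, which did not pass the filter. It gave 2, 0 and 11 reads in Mga knockout, 0 and 1 in L3mbtl2 knockout, 4 and 7 in Pcgf6 knockout, and 0 in wild type. The library with the most reads of the 10 genes also had the most of Duxf3, and libraries of the other groups had 0 to 7. Mga knockout replicate 2, with 189 reads of the 10 genes, had none of Duxf3, and replicate 1, with 136, had 2. A link between the levels was not tested. Among 36 tested regulators of the state, which include activators and repressors, 5 rose and 9 fell in Mga knockout (6 and 11 without its replicate 2), 9 rose and 8 fell in L3mbtl2 knockout, and 2 rose and 5 fell in Pcgf6 knockout. Set beside the shares of all tested genes above, the share of regulators that rose was lower in Mga knockout and near it in L3mbtl2 and Pcgf6 knockout, and the share that fell was above it in all 3. The median of the regulators was -0.04 in Mga knockout, -0.02 in L3mbtl2 knockout and 0.04 in Pcgf6 knockout. E2f6, a repressor that is itself a PRC1.6 subunit, rose by 1.61 ± 0.10 in Mga knockout (adjusted p = 2.09e-05) and by 0.82 ± 0.11 in Pcgf6 knockout (adjusted p = 0.00469).

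Dppa2 and Dppa4 encode partner proteins that switch on Dux in mouse embryonic stem cells. Dppa2 was at 52.5, 56.9 and 52.8 FPKM in Mga knockout, 114 and 111 FPKM in L3mbtl2 knockout, 80 and 76.4 FPKM in Pcgf6 knockout, and 98.3, 96.8 and 92.1 FPKM in wild type. Its log2 fold change was -0.82 ± 0.06 in Mga knockout (adjusted p = 5.20e-05), 0.23 ± 0.07 in L3mbtl2 knockout (adjusted p = 0.0256) and -0.29 ± 0.07 in Pcgf6 knockout (adjusted p = 0.0324), higher than wild type in L3mbtl2 knockout and lower in the others. Dppa4 was lower in all 3, at -0.69 ± 0.07 in Mga knockout (adjusted p = 0.000208), -1.12 ± 0.08 in L3mbtl2 knockout (adjusted p = 4.22e-05), and least so in Pcgf6 knockout, at -0.42 ± 0.08 (adjusted p = 0.013). Both lie on chromosome 16, whose tested genes had medians of -0.21 in Mga knockout, 0.03 in L3mbtl2 knockout and -0.30 in Pcgf6 knockout. Of 8 tested oocyte and maternal genes, 2 rose in Mga knockout (5 rose and 1 fell without its replicate 2), 3 rose and 2 fell in L3mbtl2 knockout, and 2 rose and 1 fell in Pcgf6 knockout.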

How the data were processed

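RNA of mouse embryonic stem cells was measured in 10 libraries, grouped by the genotype in the labels (3 Mga knockout, 2 L3mbtl2 knockout, 2 Pcgf6 knockout, 3 wild type). The values are FPKM per Ensembl gene as deposited. Per the submitters' processing notes, Bowtie2 2.2.3, TopHat2 2.0.12 and HTSeq 0.6.0 were used with GRCm38; the scaling of FPKM and the assignment of reads from near-identical copies are not given in the sources used here. Whole reads were recovered from the steps of the FPKM values: for 77.9% of the 28713 genes above 0 at the exon length of GENCODE M21, within 0.005 of a read, and for 22.1% at a length found from the values. Symbols and positions come from GENCODE M21.

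Tests were made with limma 3.58.1 (R 4.3.3) on log2(FPKM + 0.1), with a variance prior following mean expression, all 10 libraries in 1 fit, and Benjamini-Hochberg adjustment over the 15731 genes that reached 0.5 FPKM in 2 or more libraries, or over all genes above 0 where that is said (threshold 0.05). This scale understates the change of genes near 0. Errors of fold changes are SE, and those of levels SD. With no molecular identifiers, reads need not be separate molecules, so intervals (exact Poisson, 95%) and the floor of 3 reads over a group cover counting error only. Whether replicates are separate cultures is not stated, so p-values reflect the spread among these libraries alone, which could be technical. That spread is pooled over the groups. Groups with no read of a gene add none to it, so the SE can understate the spread within Mga knockout. Replicate numbers did not pair libraries (correlations of -0.02 to 0.03 over 13 pairs). The script was tested on simulated data for Mga knockout against wild type, using genes past the filter with reads in wild type. Members with no read in wild type were not covered by that test.

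All members are named, and from the other gene lists up to 4 genes with the smallest p in Mga knockout and up to 2 in each other knockout, fewer being printed. The members, lists and rule were chosen with earlier results of these data known. Exceptions chosen after their values were seen are Gm11543, Gm11545, Gm11546, AA623943, Gm18433, Gm2016, Gm8332, Gm37596, Gm5773, Gm5852, Duxf3, Usp26 and Fbxo15. Upstream sequences are those of RefSeq (GRCm38.p6) for 6 members. Alternatives were other pseudocounts, filters, scalings, priors and fits, a replicate block and each library left out; fits with no filter that leave out a library, and list and overlap counts without Mga knockout replicate 2, were added after seeing the data.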

Additional observations from a re-analysis of the deposited data

How the results depend on the processing

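Counts of the 6 tested genes past the threshold moved by more than 1.5 times under several choices. With a pseudocount of 1 they were 0 for L3mbtl2 knockout against wild type, 3 for Pcgf6 knockout against wild type and 1 for Mga against L3mbtl2 knockout. For L3mbtl2 knockout against wild type the count was 2 with a pseudocount of 0.01 and 2 with a spread per group. With no filter it was 2 (over all 10 genes, through Tdpoz1). It was 0 with only the libraries of both groups, where no member passed the filter and so none was tested. For Mga against L3mbtl2 knockout it was 0 with only the libraries of both groups and 1 with limma-voom on recovered reads, and for Mga against Pcgf6 knockout it was 1 with no filter, Tdpoz1 again. The other planned fits, the scalings among them, kept each count within 1.5 times. For Mga knockout against wild type the count of 6 became 4 with a pseudocount of 1 and with a spread per group. It was also 4 with only the libraries of both groups, where Usp17lc and Usp17ld did not pass the filter and were not tested. Leaving out 1 library at a time gave 4 to 6 for Mga knockout against wild type, 0 to 2 for L3mbtl2 knockout against wild type, 0 to 6 for Pcgf6 knockout against wild type, 1 to 4 for Mga against L3mbtl2 knockout, 0 to 3 for Mga against Pcgf6 knockout and 1 to 6 for L3mbtl2 against Pcgf6 knockout. The filter was applied again in each fit that left out libraries, so in some of them fewer of the 6 genes were tested. Beyond this and the smaller number of samples, the cause was not tested.

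Direction changed for small differences that did not pass. Usp17ld in L3mbtl2 knockout against wild type was 0.07 with a pseudocount of 0.01, 0.15 with limma-voom, 0.38 with the replicate block, 0.14 without wild type replicate 3 and 0.12 without L3mbtl2 knockout replicate 2 (-0.15 to 0.14 over libraries left out). Gm5662 in Mga against L3mbtl2 knockout was -0.22 without Mga knockout replicate 3 (-0.22 to 1.04). In Mga against Pcgf6 knockout, Usp17la was 0.21 and 0.08 without Mga knockout replicates 1 and 2 (-1.09 to 0.21), Usp17ld was 0.31 without replicate 1 (-0.61 to 0.31), and, in fits over every gene above 0 added after seeing the data, Zfp352 was 0.12 and Tdpoz3 0.15 without replicate 2 and Tdpoz4 -0.01 without Pcgf6 knockout replicate 2. Tdpoz4 in L3mbtl2 against Pcgf6 knockout was 0.24 without Pcgf6 knockout replicate 1.

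With the replicate block the counts were 6 for Mga knockout, 1 for L3mbtl2 knockout and 6 for Pcgf6 knockout against wild type, 2 for Mga against L3mbtl2 knockout, 0 for Mga against Pcgf6 knockout and 5 for L3mbtl2 against Pcgf6 knockout. The same numbers share no origin in the labels. Depth limits Tdpoz1, Tdpoz3 and Tdpoz4 most, at 24 reads or fewer per library.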

Other observations

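Usp26, an X-linked deubiquitinating enzyme gene of the 2-cell list, stood opposite to the Usp17l enzymes: it was at 7.15, 0.959 and 7.3 FPKM in Mga knockout, 9.69 and 9.21 FPKM in L3mbtl2 knockout, 2.12 and 1.95 FPKM in Pcgf6 knockout, and 20.9, 20.8 and 18.5 FPKM in wild type. Every knockout library was below every wild type library. Fbxo15, an F-box gene of pluripotent cells in the same list, was at 120, 117 and 198 FPKM in Mga knockout, 126 and 130 FPKM in L3mbtl2 knockout, 79.1 and 77.3 FPKM in Pcgf6 knockout, and 70.1, 66.1 and 64.1 FPKM in wild type. It was the most abundant of the 3 genes of that list that rose in L3mbtl2 knockout, at 0.93 ± 0.20 on the log2 scale (limma, adjusted p = 0.00652). These genes were chosen after their values were seen. Of 25 tested germ line genes, 23 rose and 1 fell in Mga knockout (24 and 1 without its replicate 2), 16 rose and 2 fell in L3mbtl2 knockout, and 14 rose and 1 fell in Pcgf6 knockout. Of the 20 pluripotency markers, 14 rose and 1 fell in Mga knockout (15 and 3 without its replicate 2), 13 rose and 1 fell in L3mbtl2 knockout, and 9 rose in Pcgf6 knockout. Over all tested genes Mga knockout had 22.8% higher and 16.7% lower (32.7% and 22.7% without its replicate 2). L3mbtl2 knockout had 23.4% higher and 16.7% lower, and Pcgf6 knockout 5.45% higher and 4.62% lower.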
